A study of Mus musculus with 3 samples.

Results

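The members described here were 10 genes of the circadian clock, Dbp, Tef, Per1, Per2, Per3, Nr1d1, Nr1d2, Ciart, Arntl and Npas2, in mouse lung. They were 10 of the 27998 genes in the deposited matrices, and each was found by its symbol in exactly 1 row. They were chosen with their levels in these libraries already known, so those levels are given as a description and no test is made on them. Lungs of C57BL/6 females of 10 to 12 weeks were profiled as 3 libraries of single cells, 1 per group. In CONV the thorax had received 17 Gy of 4.5 MeV electrons in conventional mode, in FLASH the same dose at an ultra-high dose rate, and NI was the non-irradiated control. Irradiation was under isoflurane anaesthesia. The sources used here do not give the time after irradiation, the number of mice pooled per library or the hour of collection, and the labels state only that animals were kept under a regular cycle of day and night. The transcripts of these genes change with the hour in mouse tissues, so the hour of collection and the group cannot be told apart in these data. Both comparisons with NI also use the same NI library, and a departure of that library would enter both.

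The clock is a feedback loop of transcription. BMAL1, the product of Arntl, pairs with CLOCK or with NPAS2, binds E-boxes and switches on the Per and Cry genes, whose proteins then inhibit that pair. A second loop runs through the nuclear receptors REV-ERB alpha and beta (Nr1d1 and Nr1d2), which repress Arntl and Npas2, and through the ROR receptors, which oppose them. Output is carried by the PAR bZIP factors DBP, TEF and HLF, which bind D-boxes. Clocks run in most lung cells, and the club cells of the airway are known for a strong one.

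Promoter windows of 250 bases before the start site were available for 9 of the 10 members, 12 windows in all, from RefSeq annotation on GRCm38.p6, the assembly also called mm10; Per2 had no entry. Windows were searched on both strands for the canonical E-box CACGTG, its variant CACGTT, the D-box TTATGTAA, the ROR and REV-ERB element as TAGGTCA or TGGGTCA, and the cAMP response element TGACGTCA. No motif shared bases with another in the windows shown. The E-box lay in windows of 3 members (Ciart, Tef and Per1) and in 6.02% of the 32851 promoter windows of the genome. The D-box lay in 1 member (Per3) and in 0.819% of all windows, and the E-box variant in 1 (Nr1d1) and in 3.85%. The ROR element was in no member's window and in 5.38% of all, and the cAMP response element in none and in 1.55%. A match is a description of letters, and its absence from these windows says nothing about the factor. The windows of the 4 genes below are shown because each holds the E-box, bound by the BMAL1 pair, or the D-box, bound by DBP and TEF; capitals mark those letters. They are written 5′ to 3′ on the strand of the gene, for Ciart chr3:95882229-95882478 (minus strand), for Tef the window of its second start chr15:81811164-81811413 (plus), for Per1 the window of its first start chr11:69098699-69098948 (plus) and for Per3 chr4:151044666-151044915 (minus). The E-boxes of Ciart began 116, 58 and 44 bases before its start, that of Tef 138 and that of Per1 166, and the D-boxes of Per3 began 205 and 158 bases before its start.
Ciart: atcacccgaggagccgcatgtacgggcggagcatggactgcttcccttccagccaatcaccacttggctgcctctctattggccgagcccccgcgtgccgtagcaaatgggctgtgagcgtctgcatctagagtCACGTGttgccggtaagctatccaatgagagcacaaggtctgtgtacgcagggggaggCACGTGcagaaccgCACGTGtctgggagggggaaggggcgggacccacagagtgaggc
Tef: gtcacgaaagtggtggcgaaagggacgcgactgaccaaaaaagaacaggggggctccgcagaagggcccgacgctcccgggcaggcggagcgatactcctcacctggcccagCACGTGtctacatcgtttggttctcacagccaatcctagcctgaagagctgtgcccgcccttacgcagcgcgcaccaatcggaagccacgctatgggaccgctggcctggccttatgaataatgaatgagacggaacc
Per1: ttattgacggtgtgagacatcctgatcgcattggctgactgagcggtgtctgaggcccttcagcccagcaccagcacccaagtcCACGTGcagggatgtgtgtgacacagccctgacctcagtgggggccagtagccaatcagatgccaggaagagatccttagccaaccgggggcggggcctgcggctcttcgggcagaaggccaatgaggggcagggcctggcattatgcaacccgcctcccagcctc
Per3: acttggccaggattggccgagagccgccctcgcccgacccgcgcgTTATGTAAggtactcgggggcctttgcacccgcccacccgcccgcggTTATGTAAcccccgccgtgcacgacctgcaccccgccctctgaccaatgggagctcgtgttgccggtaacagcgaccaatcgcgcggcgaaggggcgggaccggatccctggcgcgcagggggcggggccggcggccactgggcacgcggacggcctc

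Values are counts of unique molecular identifiers (UMIs, which count each captured transcript once), summed over the cells of a class and divided by the UMI total of those cells and given per 1000000 UMIs (CPM). Brackets hold exact 95% intervals for counting error only. Each group was 1 library (n = 1) without replicate, so no p-value is given and the intervals leave out any variation between mice, dissociations or loadings. A ratio was counted where both libraries together had at least 10 UMIs of the gene, as higher or lower from 2-fold. UMIs were read near the 3' end, so levels are compared between libraries and cell classes for 1 gene, never between genes. The deposited matrices held 2507 CONV, 2394 FLASH and 1761 NI barcodes with 7463259, 5498902 and 7114360 UMIs. Of these, 2387, 2254 and 1704 were kept as cells, and 5 to 7 barcodes were shared by each pair of libraries. Cells were clustered and named by markers, so every class name below means cells like that type. In all, 13 classes held at least 30 cells in each library, 9 of them non-lymphoid and 4 lymphoid. In cells like alveolar type 2 (AT2), the defining surfactant gene Sftpc was at 214861, 222141 and 236780 CPM in CONV, FLASH and NI. The dendritic class also carried markers of type 1 dendritic cells, and 1 stromal cluster, led by Rbp4 and Gdf10, was left unnamed. The lymphoid share of cells was 22.1% in CONV, 24.6% in FLASH and 58.6% in NI, so pools of non-lymphoid and lymphoid cells are described apart. The NI library also stood apart by 3 lymphoid clusters of 485 cells, of which 478 were NI cells, led by Rag1 and Insl5, by genes of dividing cells, or by Itm2a, Tox and Ccr9. They were left out of the lymphoid pool, and values with them are given beside the lymphoid results that they move most.

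In the non-lymphoid cells, most output genes and repressors of the clock were higher in both irradiated libraries than in NI, and the activators Arntl and Npas2 were lower. At least 2-fold higher in CONV than in NI were 5 of the 10 members (Dbp, Tef, Per2, Per3 and Ciart), where 4.5% of the 13991 genes measured were; 2 of 10 were at least 2-fold lower (Arntl and Npas2), where 5.56% of all genes were. In FLASH against NI, 4 of 10 were higher (the same without Per2) and 2 of 10 lower (the same 2), against 4.74% and 5.76% of 13688 genes. Because the members were chosen on these values, nothing is read from these counts. The median log2 ratio of the members was 0.80 in CONV and 0.58 in FLASH, and that of all genes 0.03 in each. Between the irradiated libraries, 0 of 9 members differed by 2-fold in either direction, where 1.91% of 13951 genes were higher and 2.12% lower in FLASH.

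**Figure D1:**
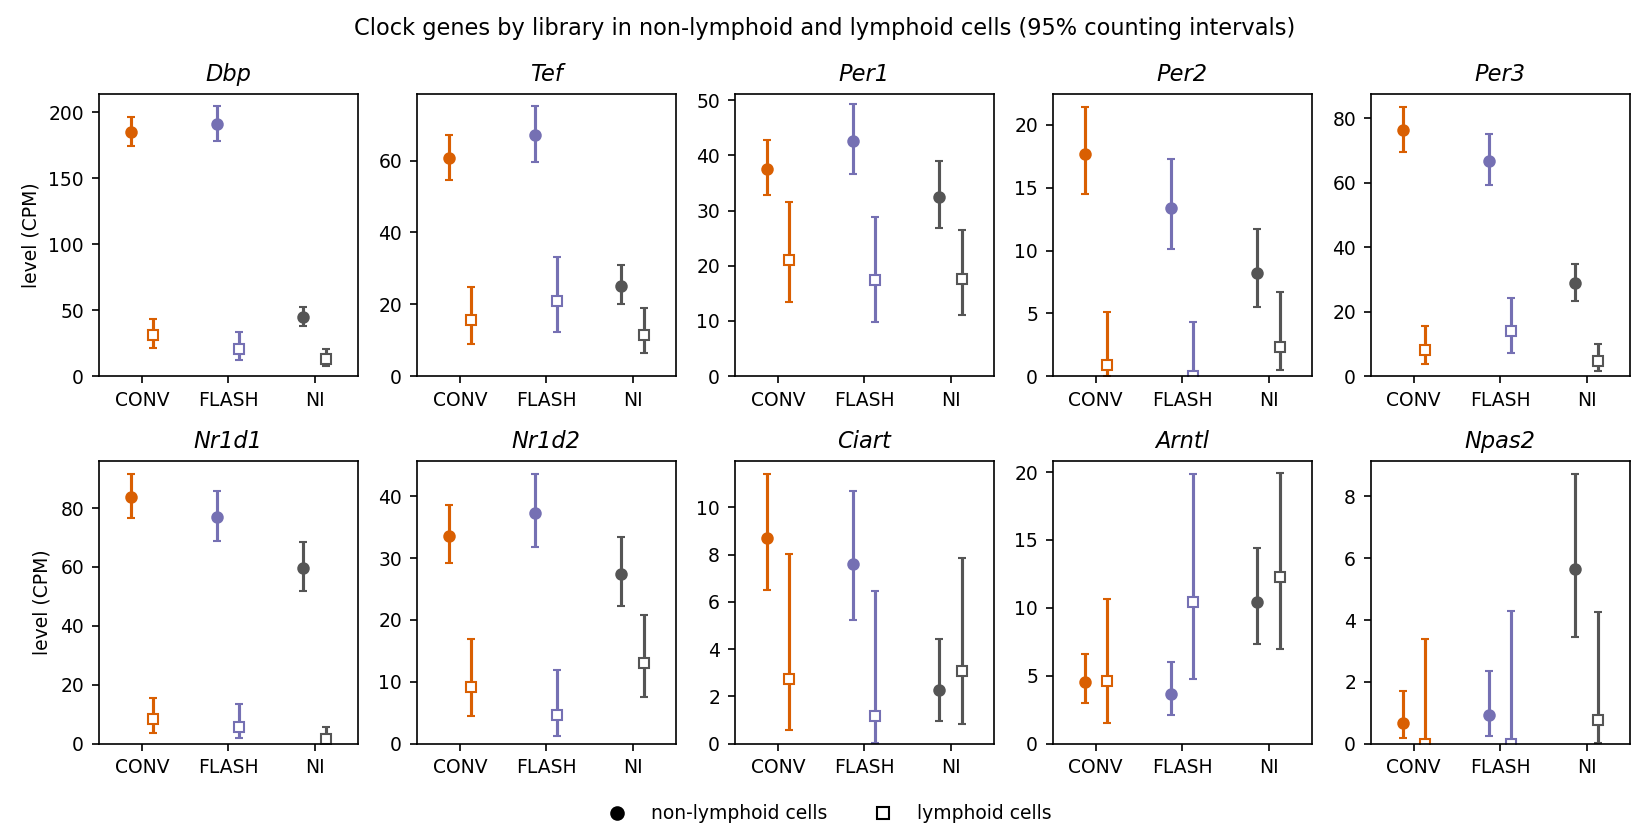
Level of each of the 10 clock genes (vertical axis, CPM) in the CONV, FLASH and NI libraries, in pooled non-lymphoid cells (filled circles) and pooled lymphoid cells without the control-rich clusters (open squares); whiskers are exact 95% intervals for counting error. Dbp stood at 185 CPM in CONV and 191 CPM in FLASH against 44.8 CPM in NI non-lymphoid cells, while Arntl and Npas2 were highest in NI.

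Dbp, the D-box factor whose transcript is among the strongest rhythmic outputs of the clock in mouse tissues, lies on chr7:45705088-45710203 (plus strand, mm10). In non-lymphoid cells it had 1109 UMIs in CONV, 828 in FLASH and 159 in NI, or 185, 191 and 44.8 CPM. The ratio to NI was 4.14 (3.50 to 4.91) for CONV and 4.26 (3.59 to 5.08) for FLASH, and that of FLASH to CONV 1.03 (0.940 to 1.13). With every class given the same weight in each library the ratios to NI were 4.33 and 4.24. The difference was also seen as a share of cells: after each cell was thinned to 1000 UMIs, 16.4% of CONV, 18.3% of FLASH and 3.83% of NI non-lymphoid cells held a Dbp UMI. Unthinned, the shares were 35.7%, 30.3% and 13.5%, with median depths of 2592, 2077 and 4089 UMIs per cell, so NI was the deepest and had the lowest share. In lymphoid cells, which carry little of the transcript, the thinned shares were 2.29%, 2.02% and 0.576% and the unthinned shares 6.12%, 2.90% and 3.07%, at median depths of 1827, 1386.5 and 2205 UMIs. Of the FLASH cells, 3 non-lymphoid and 7 lymphoid cells were too shallow for thinning.

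Among the 13 classes with at least 30 cells in each library, Dbp was highest in the 5 structural classes in CONV and in FLASH. In each of the 5 it was higher there than in NI. The smaller classes, some of which reached higher levels, are given further below and are not in this order. In NI, alveolar fibroblasts, unnamed stromal cells and smooth muscle cells were highest of the 13. Interstitial macrophages, at 26.9 CPM, lay beside AT2 and general capillary cells in NI. In alveolar fibroblasts, which hold the lipid and matrix niche of the alveolus, it was at 497 (437 to 564) CPM in CONV, 458 (384 to 542) in FLASH and 156 (112 to 212) in NI. In smooth muscle cells or myofibroblasts it was at 412 (298 to 555), 320 (193 to 500) and 38.5 (10.5 to 98.5) CPM, and in the unnamed stromal cluster at 319, 333 and 126 CPM. General capillary cells, the endothelium that repairs the capillary bed, had 241, 290 and 25.2 CPM. AT2 cells, which make surfactant, had 201 (179 to 224), 255 (225 to 287) and 26.0 (16.5 to 39.0) CPM. In all 5 classes the interval of NI lay apart from those of both irradiated libraries.

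As ratios to NI, AT2 cells were 7.73 (5.06 to 12.4) in CONV and 9.80 (6.39 to 15.7) in FLASH. General capillary cells were 9.56 (3.70 to 31.4) and 11.5 (4.54 to 37.4), on few NI UMIs, and 20.8 and 24.4 when the 1 cell with the most Dbp UMIs was left out. Smooth muscle cells were 10.7 (3.89 to 41.1) and 8.33 (2.77 to 33.7), and 19.6 and 14.1 without such a cell. Alveolar fibroblasts were 3.18 (2.28 to 4.55) and 2.93 (2.05 to 4.27), and unnamed stromal cells 2.54 (1.57 to 4.38) and 2.65 (1.62 to 4.61). The ratio in alveolar fibroblasts was thus 0.412 (0.241 to 0.705) of that in AT2 cells for CONV and 0.299 (0.173 to 0.519) for FLASH, and the unnamed stromal ratio 0.329 (0.173 to 0.625) and 0.271 (0.141 to 0.519) of it. For capillary and smooth muscle cells the interval of this quotient included 1. In NI the fibroblast level was 6.01 times that of AT2 cells, against 2.48 times in CONV and 1.80 times in FLASH. Alveolar fibroblasts and AT2 cells thus lay closer together in the irradiated libraries, but not every class did so. Interstitial macrophages, beside AT2 cells in NI, lay below them in CONV and in FLASH.

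Among myeloid cells the difference was seen in interstitial macrophages, on 4 UMIs in 31 NI cells. The difference also rested on few UMIs in alveolar macrophages and was small or unresolved in monocytes and dendritic cells. Interstitial macrophages, which sit in the lung connective tissue, had 27, 26 and 4 Dbp UMIs in CONV, FLASH and NI. These were 97.7, 90.5 and 26.9 CPM, ratios of 3.63 (1.27 to 14.3) and 3.37 (1.17 to 13.3). After thinning, 6.12% (2.28 to 12.9) of CONV, 12.8% (7.20 to 20.6) of FLASH and 3.23% (0.0816 to 16.7) of NI cells held a Dbp UMI, with overlapping intervals. In this class the median log2 ratio of all genes was 0.15 in both comparisons. Alveolar macrophages, the airspace phagocytes, had 10, 6 and 0 UMIs or 21.6, 14.1 and 0 CPM, so CONV was at least 1.75-fold higher against the 3 counts that a count of 0 allows. Non-classical monocytes had 19.2, 18.5 and 15.3 CPM, with ratios of 1.26 and 1.21, and the dendritic class had 4, 1 and 3 UMIs. Over all classes, Dbp was at least 2-fold higher in 9 of 12 classes with enough UMIs in CONV against NI, beside alveolar macrophages with their bound of 1.75, and the interval excluded 1 in 8 of the 12, where 6.43% to 15.3% of all genes were higher per class. In FLASH against NI it was higher in 6 of 8 classes, with intervals above 1 in all 6, where 5.4% to 15.5% of all genes were. When classes were put in order of Dbp level, the intervals of neighbours lay apart at 1 of 12 steps in CONV and in FLASH, each time between AT2 cells and interstitial macrophages, and at 0 of 12 steps in NI.

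**Figure D2:**
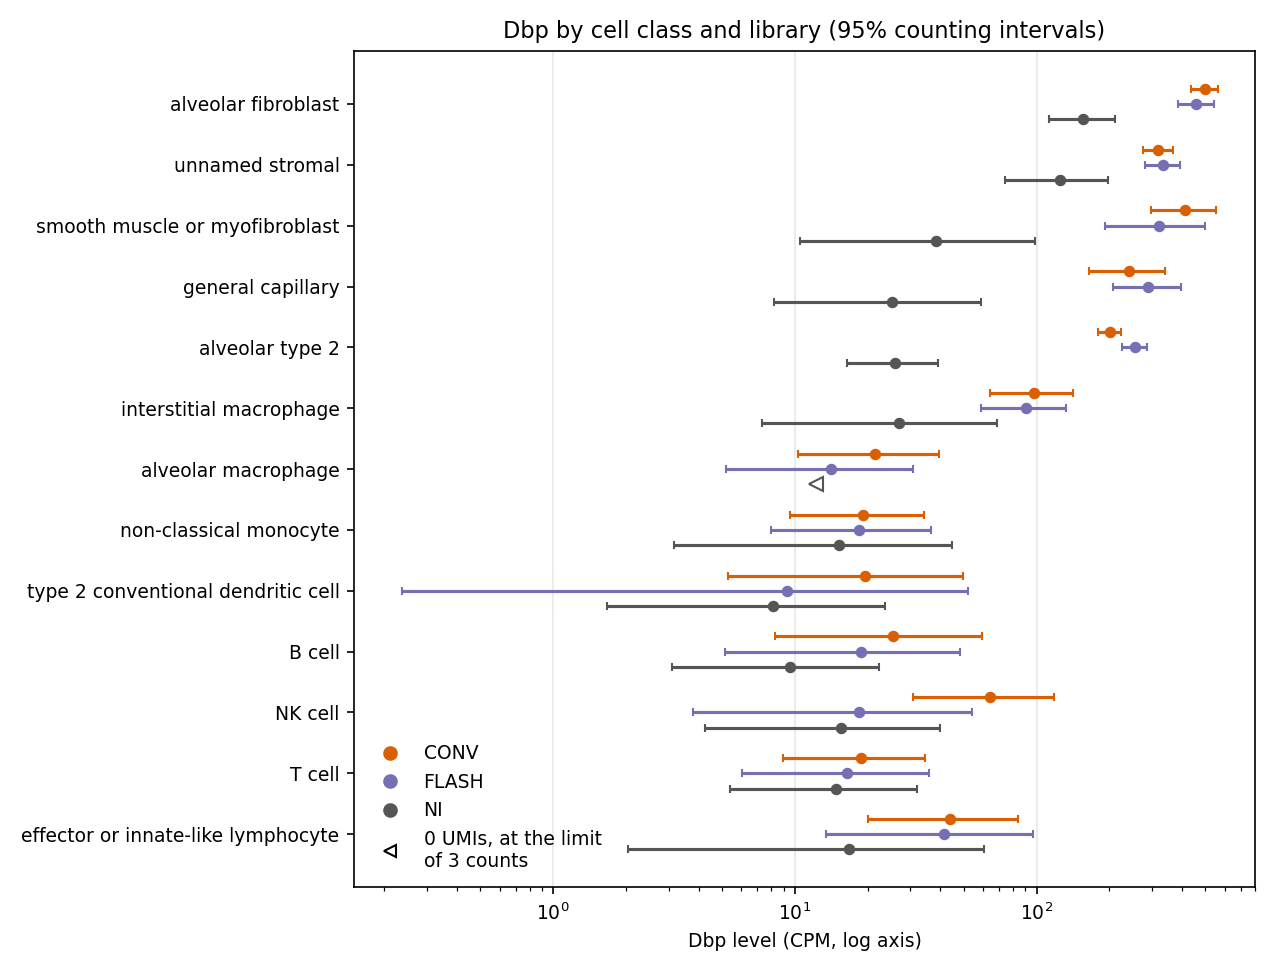
Dbp level (horizontal axis, CPM on a log scale) in the 13 cell classes with at least 30 cells per library, for CONV, FLASH and NI; points are levels, whiskers exact 95% intervals for counting error, and the open triangle marks a class with 0 UMIs at the limit of 3 counts. In the 5 structural classes the NI point lies left of both irradiated points and of their whiskers, while in monocytes and T cells the 3 whiskers overlap.

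Smaller classes, with under 30 cells in at least 1 library, gave a less uniform picture. Mesothelial cells, the lining of the lung surface, had 29, 12 and 28 Dbp UMIs in CONV, FLASH and NI, or 296, 292 and 370 CPM. Their ratios to NI of 0.799 (0.459 to 1.39) and 0.788 (0.365 to 1.60) lay below those of the structural classes above, on 23, 17 and 14 cells. Ciliated cells, which move mucus, had 264, 278 and 29.8 CPM, ratios of 8.85 (3.34 to 33.1) and 9.31 (3.51 to 34.9). Club cells, secretory cells of the airway, had 79.1, 91.8 and 40.1 CPM, ratios of 1.97 (1.21 to 3.34) and 2.29 (1.36 to 3.95). Adventitial fibroblasts, which surround vessels and airways, had 248, 183 and 36.1 CPM. Alveolar type 1 cells, the thin gas-exchange epithelium, had 11, 7 and 0 UMIs, which put CONV at least 1.53-fold higher. Neutrophils had 0 Dbp UMIs in each library, on 20, 19 and 13 cells.

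Tef, a D-box factor related to DBP (chr15:81802421-81826863, plus strand), had 363, 291 and 89 UMIs in non-lymphoid cells, or 60.7, 67.1 and 25.1 CPM. The ratio to NI was 2.42 (1.91 to 3.08) in CONV and 2.67 (2.10 to 3.43) in FLASH, and 3.42 and 4.21 with the same class weights in every library. In AT2 cells it was at 56.8, 54.3 and 14.7 CPM, ratios of 3.87 (2.15 to 7.55) and 3.70 (2.00 to 7.35). Alveolar fibroblasts had 117, 131 and 30.5 CPM, ratios of 3.83 (1.82 to 9.29) and 4.31 (1.99 to 10.7), and of 9.11 and 11.7 after thinning. Unnamed stromal cells had 91.8, 141 and 27.9 CPM, general capillary cells 60.2, 86.9 and 20.1 CPM, and smooth muscle cells 105, 135 and 28.9 CPM. Alveolar macrophages had 3, 9 and 1 UMIs. Tef was at least 2-fold higher in 5 of 6 classes with enough UMIs in CONV, where 6.53% to 15.3% of all genes were per class, and in 7 of 9 in FLASH, where 5.4% to 11.6% were. In alveolar type 1 cells, by contrast, the levels were 165, 300 and 198 CPM, with CONV at 0.835 (0.290 to 2.71) and FLASH at 1.52 (0.587 to 4.61) of NI.

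Per3, a period gene that is not essential for rhythm in mice (chr4:151003652-151044665, minus strand), had 456, 290 and 102 UMIs in non-lymphoid cells, or 76.2, 66.9 and 28.8 CPM. Its ratio was 2.65 (2.13 to 3.32) in CONV and 2.32 (1.85 to 2.94) in FLASH, and 1.90 and 2.01 after thinning. In AT2 cells it was at 92.8, 94.5 and 26.0 CPM, ratios of 3.57 (2.29 to 5.81) and 3.64 (2.29 to 6.00); with cells thinned to 1000 UMIs the CONV ratio was 2.08. Alveolar fibroblasts had 113, 118 and 38.1 CPM, ratios of 2.96 and 3.09, which were 1.82 and 2.08 after thinning. In the unnamed stromal cluster, at 112, 91.0 and 55.8 CPM, the ratios of 2.01 and 1.63 were 0.636 and 0.653 after thinning. General capillary cells had 9, 3 and 4 UMIs. Ciliated cells had 170, 145 and 104 CPM, and alveolar type 1 cells had 12, 13 and 0 UMIs, at least 1.67-fold higher in CONV and at least 1.97-fold higher in FLASH.

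Per2, a core repressor that binds CRY proteins (chr1:91415982-91459324, minus strand), was sparser, with 106, 58 and 29 UMIs or 17.7, 13.4 and 8.18 CPM in non-lymphoid cells. The ratio was 2.17 (1.43 to 3.39) in CONV and 1.64 (1.03 to 2.65) in FLASH, and the FLASH ratio was 0.970 after thinning. In AT2 cells it had 49, 27 and 9 UMIs, or 30.9, 25.3 and 10.2 CPM, ratios of 3.04 (1.48 to 7.05) and 2.48 (1.13 to 6.01). After thinning these were 1.09 and 0.924, and the FLASH direction turned. Alveolar macrophages had 18, 6 and 4 UMIs of Per2, or 38.8, 14.1 and 16.4 CPM, with CONV at 2.37 (0.780 to 9.62) and FLASH at 0.863 (0.205 to 4.16) of NI, so neither was resolved.

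Per1, the period gene that also answers hormones and other acute signals (chr11:69095217-69109960, plus strand), differed little. Non-lymphoid cells had 225, 185 and 115 UMIs, or 37.6, 42.6 and 32.4 CPM, ratios of 1.16 (0.923 to 1.47) in CONV and 1.32 (1.04 to 1.68) in FLASH. After thinning the values were 0.873 and 0.970. AT2 cells had 34.7, 41.2 and 39.5 CPM. Per1 also had enough UMIs to be counted in the myeloid classes. It was at 49.6, 73.0 and 49.1 CPM in alveolar macrophages and 54.3, 55.7 and 40.3 CPM in interstitial macrophages. Non-classical monocytes had 48.8, 46.2 and 40.7 CPM. Every interval of the Per1 ratios in these classes included 1. The ratio to NI was within 2-fold in 9 of the 10 classes with enough UMIs in each comparison. Per1 thus lay near the NI level in the same AT2 cells in which Per3 was over 2-fold higher.

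Nr1d1, which encodes REV-ERB alpha, the repressor of Arntl (chr11:98767932-98775333, minus strand), was higher in some classes and not in others. In all non-lymphoid cells it had 501, 334 and 212 UMIs, or 83.7, 77.0 and 59.8 CPM, ratios of 1.40 (1.19 to 1.65) and 1.29 (1.08 to 1.54). In AT2 cells it was at 81.5, 74.9 and 91.5 CPM, ratios of 0.890 (0.669 to 1.19) and 0.818 (0.593 to 1.13), and over the alternatives of processing these ranged 0.788 to 0.930 and 0.727 to 0.854. In alveolar fibroblasts it was at 216, 239 and 210 CPM, ratios of 1.03 and 1.14. In general capillary cells it had 15, 17 and 6 UMIs, or 113, 123 and 30.2 CPM, ratios of 3.74 (1.37 to 11.8) and 4.08 (1.53 to 12.6), and 6.67 and 7.01 without the cell with the most Nr1d1 UMIs. Unnamed stromal cells had 165, 199 and 83.7 CPM, ratios of 1.98 (1.08 to 3.95) and 2.38 (1.29 to 4.78). Smooth muscle cells had 230, 152 and 106 CPM, ratios of 2.17 (1.03 to 4.92) and 1.43, and the CONV ratio was 1.27 at a mitochondrial limit of 5% and 0.989 after thinning. In myeloid cells Nr1d1 was sparse, with 12, 9 and 3 UMIs in alveolar macrophages and 8, 9 and 1 in interstitial macrophages, where FLASH was at 4.66 (0.646 to 204) of NI.

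Set against AT2 cells, the Nr1d1 ratio of general capillary cells was 4.20 (1.56 to 11.3) times as high in CONV and 4.98 (1.87 to 13.3) times in FLASH, and that of unnamed stromal cells 2.22 (1.15 to 4.30) and 2.91 (1.47 to 5.73) times. In alveolar fibroblasts this quotient was 1.16 and 1.39. Within AT2 cells the Dbp ratio was 8.68 (5.23 to 14.4) times the Nr1d1 ratio in CONV and 12.0 (7.08 to 20.3) times in FLASH. In alveolar fibroblasts it was 3.10 and 2.57 times and in unnamed stromal cells 1.29 and 1.12 times. In the structural classes Dbp was thus higher in each of the 5, but Nr1d1 differed from NI by under 1.3-fold in AT2 cells and alveolar fibroblasts. Among smaller classes, adventitial fibroblasts had 276, 98.6 and 60.1 CPM of Nr1d1, with CONV at 4.59 (1.76 to 15.2) and FLASH at 1.64 (0.448 to 6.55) of NI, and mesothelial cells had 81.6, 146 and 119 CPM. The last 1075 bases of Nr1d1 (chr11:98767932-98769006) overlap Thra, the thyroid hormone receptor gene, on the opposite strand. Thra was at 56.5, 39.7 and 40.9 CPM in non-lymphoid cells, ratios of 1.38 (1.13 to 1.69) and 0.970 (0.773 to 1.22). The sources used here do not say whether the counting used strand. Annotated genes also overlap Dbp (Sphk2), Tef, Ciart and Arntl (antisense genes), Npas2 (processed pseudogenes) and, on the same strand, Per3 (Camta1), and reads could have been split or lost there.

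**Figure D3:**
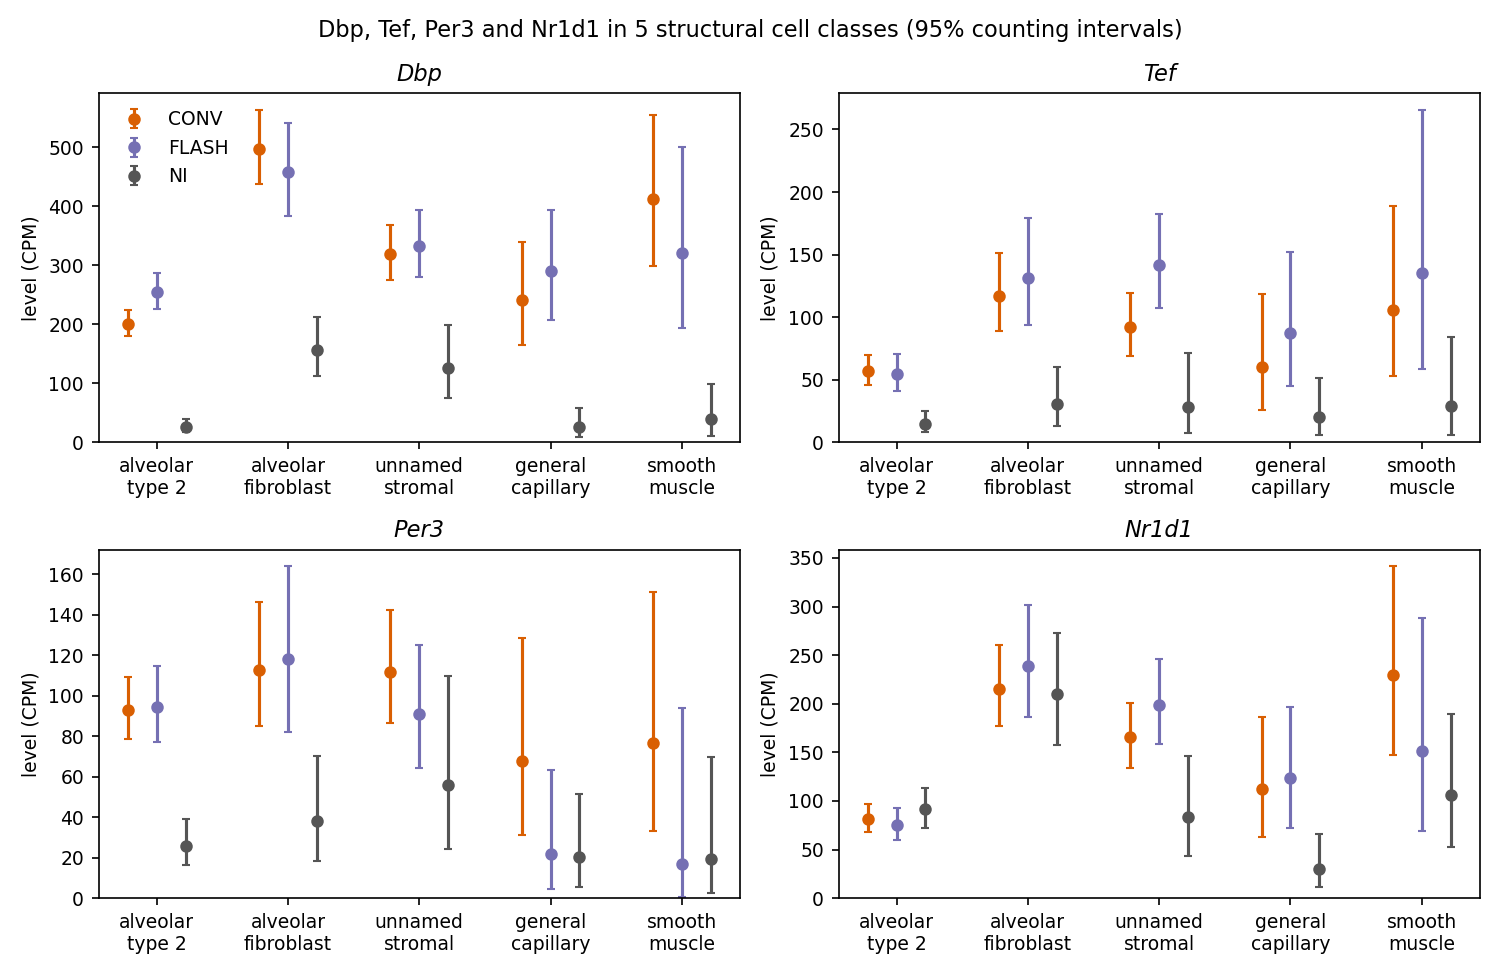
Levels (vertical axes, CPM) of Dbp, Tef, Per3 and Nr1d1 in 5 structural cell classes for CONV, FLASH and NI, with exact 95% intervals for counting error. Dbp and Tef of both irradiated libraries lie above NI in each class, whereas Nr1d1 in AT2 cells (81.5, 74.9 and 91.5 CPM) and alveolar fibroblasts (216, 239 and 210 CPM) has overlapping whiskers in the 3 libraries.

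Nr1d2, which encodes REV-ERB beta (chr14:18204054-18239127, minus strand), had 201, 162 and 97 UMIs in non-lymphoid cells, or 33.6, 37.3 and 27.3 CPM, ratios of 1.23 (0.960 to 1.58) and 1.37 (1.06 to 1.78). AT2 cells had 39.8, 60.8 and 33.9 CPM, with CONV at 1.17 and FLASH at 1.79 (1.15 to 2.87) of NI. Alveolar fibroblasts had 50.4, 43.8 and 41.9 CPM. The gene was 2-fold higher than NI in none of the classes with enough UMIs, except that FLASH AT2 cells were at 2.13 at a mitochondrial limit of 5%, and its lowest CONV ratio, 0.411 (0.104 to 1.70) in non-classical monocytes, rested on 6 CONV and 5 NI UMIs. Ciart, a repressor of the BMAL1 pair also called CHRONO (chr3:95878503-95882251, minus strand), had 52, 33 and 8 UMIs in non-lymphoid cells, or 8.69, 7.61 and 2.26 CPM. Its ratios were 3.85 (1.82 to 9.40) and 3.37 (1.53 to 8.45), and 2.02 and 1.66 after thinning. In AT2 cells it had 17, 13 and 0 UMIs, at least 3.17-fold higher in CONV and at least 3.59-fold higher in FLASH against a limit of 3 NI counts. Alveolar fibroblasts had 11, 8 and 1 UMIs.

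The activators were lower in the irradiated libraries, on few UMIs, and AT2 cells held 16 of the 37 Arntl and 7 of the 20 Npas2 UMIs of NI non-lymphoid cells. Arntl (chr7:113207465-113314126, plus strand) had 27, 16 and 37 UMIs in non-lymphoid cells, or 4.51, 3.69 and 10.4 CPM, with CONV at 0.433 (0.253 to 0.730) and FLASH at 0.354 (0.184 to 0.652) of NI. AT2 cells held 3, 1 and 16 of these UMIs, with CONV at 0.105 (0.0196 to 0.366) and FLASH at 0.0518 (0.00123 to 0.333) of NI. Without AT2 cells, 24, 15 and 21 UMIs remained, or 5.46, 4.59 and 7.89 CPM, ratios of 0.692 (0.369 to 1.31) and 0.582 (0.279 to 1.18), whose intervals include 1. In alveolar macrophages the order differed, with 8, 3 and 1 UMIs. Npas2, the partner that can stand in for CLOCK (chr1:39193731-39363236, plus strand), had 4, 4 and 20 UMIs, or 0.669, 0.922 and 5.64 CPM. CONV was at 0.119 (0.0295 to 0.354) and FLASH at 0.164 (0.0406 to 0.488) of NI. AT2 cells held 0, 0 and 7 of them, and without AT2 cells 4, 4 and 13 UMIs gave ratios of 0.186 (0.0442 to 0.603) and 0.251 (0.0595 to 0.811).

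By class, AT2 cells showed most of the pattern of the pool. Of 9 members measured in CONV against NI, 5 were higher (Dbp, Tef, Per2, Per3 and Ciart) and 1 lower (Arntl). Of all genes, 7.61% were higher and 4.79% lower. Npas2 had too few UMIs to be counted, and Arntl could be counted against NI in no other class. In FLASH against NI the same 5 were higher and the same 1 lower, where 6.39% and 5.7% of all genes were. Alveolar fibroblasts had 4 of 7 members higher in CONV (9.26% of all genes) and 3 of 6 in FLASH (7.06%). General capillary cells had 4 of 6 higher in CONV (8.08% of all genes) and 3 of 4 in FLASH (7.98%). Smooth muscle cells had 4 of 5 (8.2%) and 2 of 3 (8.52%), and unnamed stromal cells 3 of 6 (15.3%) and 3 of 6 (11.6%). In none of these 4 classes was a measured member 2-fold lower. Arntl and Npas2, the members lower in the pool, had under 10 UMIs in each and could not be counted. Of all genes, 5.87% in CONV and 7.09% in FLASH were lower in alveolar fibroblasts, and 14.3% and 12.7% in capillary cells. In smooth muscle cells 11.6% and 12.9% were lower, and in unnamed stromal cells 6.63% and 6.53%. Of the 130 pairs of gene and class, 54 had enough UMIs in CONV against NI and 47 in FLASH against NI. The interval excluded a ratio of 1 in 19 of each, and Dbp gave 8 of these in CONV and 6 in FLASH. The share of all genes with such an interval was not computed, so nothing is read from these counts.

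**Figure D4:**
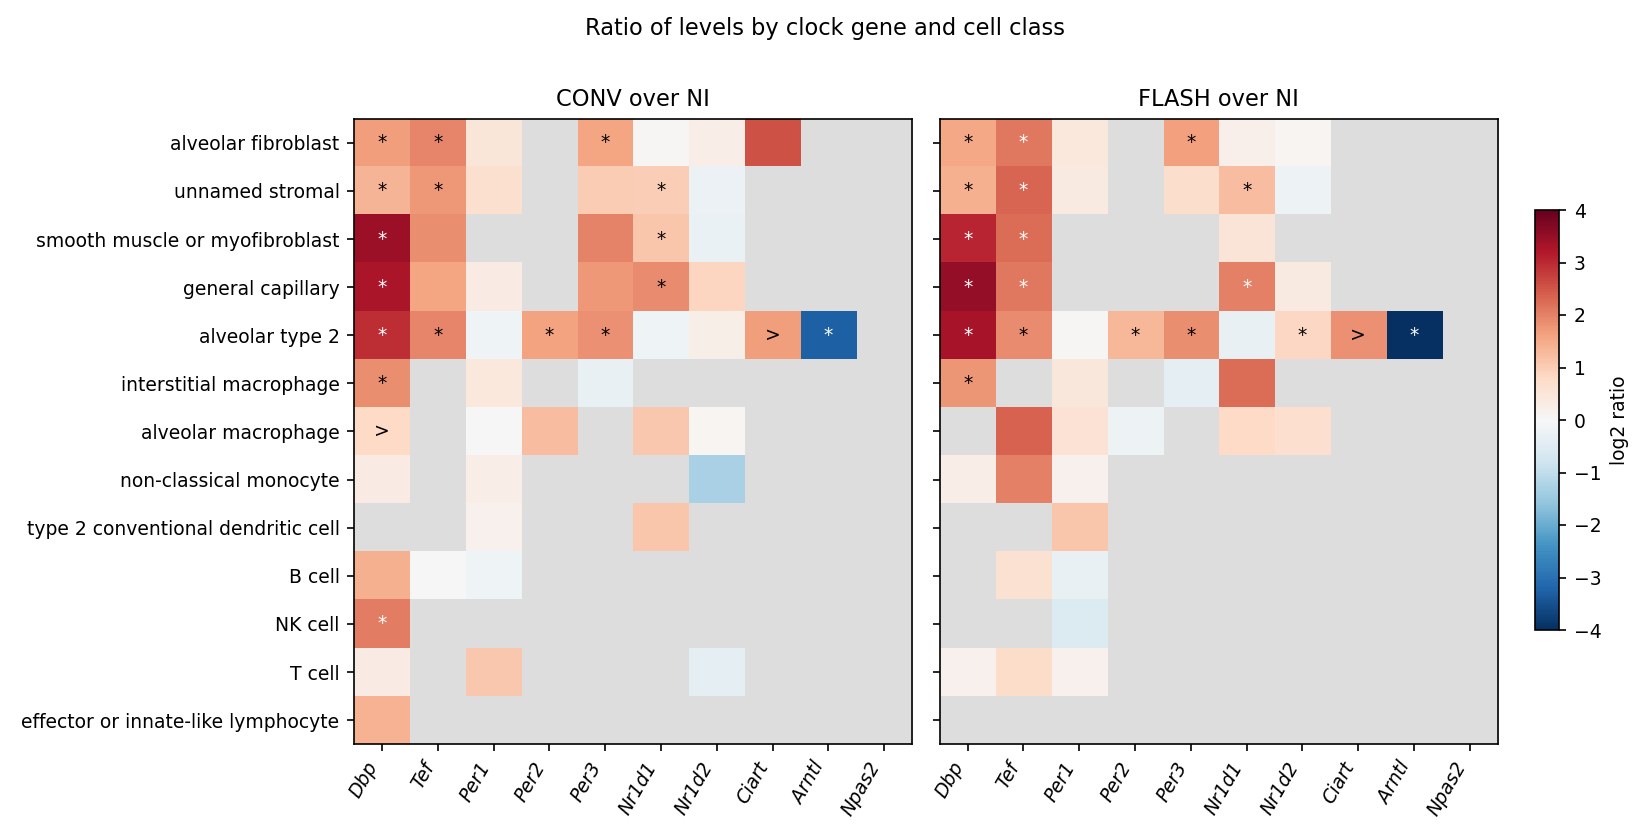
Log2 ratio of CPM (colour) of the 10 clock genes (columns) in 13 cell classes (rows) for CONV over NI and FLASH over NI; grey marks pairs with under 10 UMIs, an asterisk marks a counting interval that excludes 1, and > marks 0 NI UMIs drawn at the bound of 3 counts. The Dbp and Tef columns are warm in all 5 structural rows, and Per3 is warm in those of the 5 where it is not grey, Per1 and Nr1d2 are mostly pale, and Arntl is measured in AT2 cells alone, where it is below NI.

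FLASH and CONV lay close to each other. In non-lymphoid cells the intervals of all 9 members measured included 1: Tef was at 1.11 (0.944 to 1.29), Per1 at 1.13 (0.928 to 1.38), Per2 at 0.755 (0.538 to 1.05), Per3 at 0.877 (0.754 to 1.02), Nr1d1 at 0.919 (0.798 to 1.06), Nr1d2 at 1.11 (0.898 to 1.37), Ciart at 0.875 (0.548 to 1.38) and Arntl at 0.817 (0.411 to 1.57). These intervals do not show that the libraries are alike: the Arntl interval, for example, holds a 1.5-fold difference in either direction. By class, 52 pairs of gene and class had enough UMIs, and in 4 the interval excluded 1, a share that was not computed for all genes. Dbp in AT2 cells, at 255 CPM in FLASH and 201 CPM in CONV, had a FLASH to CONV ratio of 1.27 (1.07 to 1.49), which was 1.69 at a mitochondrial limit of 5%. Nr1d2 in AT2 cells, at 60.8 CPM in FLASH and 39.8 CPM in CONV, had one of 1.53 (1.06 to 2.20) that became 2.02 at a mitochondrial limit of 5% and 0.930 after thinning. Tef in unnamed stromal cells, at 141 CPM in FLASH and 91.8 CPM in CONV, had one of 1.54 (1.05 to 2.26). Per2 in alveolar macrophages had 6 FLASH and 18 CONV UMIs, a ratio of 0.364 (0.118 to 0.958). In AT2 cells 0 of 8 members differed by 2-fold, where 3.15% of all genes were higher and 4.84% lower in FLASH, and in alveolar macrophages 1 of 7 was higher (Tef) and 2 lower (Per2 and Arntl), where 3.91% and 5.54% of all genes were.

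In lymphoid cells the members were sparse, and the Dbp ratios to NI lay below those of non-lymphoid cells. The pool held 523 CONV, 552 FLASH and 521 NI cells. In CONV against NI, 2 of 7 members were at least 2-fold higher (Dbp and Nr1d1), where 5.64% of all genes were, and 1 lower (Arntl), where 7.44% were. In FLASH against NI, 1 of 6 was higher (Per3; 5.55% of all genes) and 1 lower (Nr1d2; 8.09%). In FLASH against CONV, 1 of 7 was higher (Arntl; 4.02%) and 0 lower (5.17%). Dbp had 34, 18 and 17 UMIs in CONV, FLASH and NI, or 31.1, 20.9 and 13.02 CPM, ratios of 2.39 (1.30 to 4.57) and 1.61 (0.782 to 3.32), and of 3.98 and 3.51 after thinning. With the control-rich clusters kept, they were 2.13 and 1.44. Tef was at 15.6, 20.9 and 11.5 CPM, ratios of 1.36 and 1.82 that became 2.13 and 2.89 with those clusters kept, and Per1 at 21.1, 17.4 and 17.6 CPM.

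Of the sparser members in lymphoid cells, Per3 had 9, 12 and 6 UMIs, a ratio to NI of 1.79 in CONV and 3.04 (1.06 to 9.87) in FLASH, and of 3.01 and 5.13 with the control-rich clusters kept. Nr1d1 had 9, 5 and 2 UMIs, a ratio of 5.38 (1.11 to 51.2) in CONV that ranged with the setting, as 1.99 after thinning, 3.18 at a mitochondrial limit of 5%, 3.39 with the control-rich clusters kept and 9.57 without the cell with the most UMIs. Nr1d2 had 10, 4 and 17 UMIs, ratios of 0.704 and 0.357 (0.0875 to 1.10), and of 0.971 and 0.621 with the control-rich clusters kept, so that FLASH was no longer 2-fold lower. Per2 had 1, 0 and 3 UMIs, Ciart 3, 1 and 4 and Npas2 0, 0 and 1. Arntl had 5, 9 and 16 UMIs, or 4.58, 10.5 and 12.3 CPM, with CONV at 0.374 (0.107 to 1.07) of NI. In the 478 NI cells of the 3 control-rich clusters, Arntl was at 25.9 (19.4 to 33.9) CPM and Dbp at 15.2 CPM, on 53 and 31 UMIs. With those cells kept in the pool the Arntl ratio was 0.218 in CONV and 0.558 in FLASH.

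By lymphocyte class, Dbp was highest in natural killer (NK) cells of CONV, at 64.3 (30.8 to 118) CPM on 10 UMIs, against 18.5 CPM in FLASH and 15.5 CPM in NI. The CONV ratio to NI was 4.14 (1.20 to 18.1), and 2.66 at a mitochondrial limit of 20%. In NK cells the 1 member measured was higher in CONV, where 6.43% of all genes were. Effector or innate-like lymphocytes had 9, 5 and 2 UMIs, or 44.0, 41.4 and 16.8 CPM, a ratio of 2.62 in CONV. B cells had 5, 4 and 5 UMIs, or 25.4, 18.8 and 9.58 CPM. T cells, the largest of the 4 classes, had 10, 6 and 6 UMIs, or 18.7, 16.5 and 14.7 CPM, ratios of 1.27 and 1.12. In T cells 1 of 3 members was higher in CONV (Per1; 7.34% of all genes) and 0 of 3 in FLASH (5.4%).

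The Sftpc level of lymphoid cells, used here as a sign of free RNA, had the same order of libraries as their Dbp level. Free RNA itself was not measured. The sums below take all Sftpc of these cells as free RNA with the mix of the kept cells, which was not tested. Sftpc, a transcript of AT2 cells, was at 3343 CPM in CONV, 2370 CPM in FLASH and 1019 CPM in NI lymphoid cells, which is 6.60%, 4.97% and 3.27% of its level in the whole library. RNA of the whole library mixed in at that share would carry 10.6, 8.07 and 0.980 CPM of Dbp, against 31.1, 20.9 and 13.02 CPM measured, and would leave 20.5, 12.9 and 12.0 CPM. In CONV NK cells the same sum gave 10.1 CPM against 64.3 (30.8 to 118) CPM measured. In T cells it gave 10.7, 7.61 and 0.915 CPM against 18.7, 16.5 and 14.7 CPM measured, and in B cells 12.9, 8.44 and 1.03 against 25.4, 18.8 and 9.58 CPM. For Nr1d1 it gave 4.75, 3.23 and 1.04 CPM in lymphoid cells against 8.24, 5.82 and 1.53 CPM measured, and the interval of each measured value reached below that sum. Alveolar macrophages, with 21.6, 14.1 and 0 CPM of Dbp, had a sum of 11.4, 8.61 and 1.18 CPM. The measured intervals, 10.3 to 39.6 CPM in CONV and 5.19 to 30.8 CPM in FLASH, included the sum. No such sum was made for AT2 cells, which make Sftpc, or for alveolar fibroblasts, so nothing is read about free RNA in them.

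**Figure D5:**
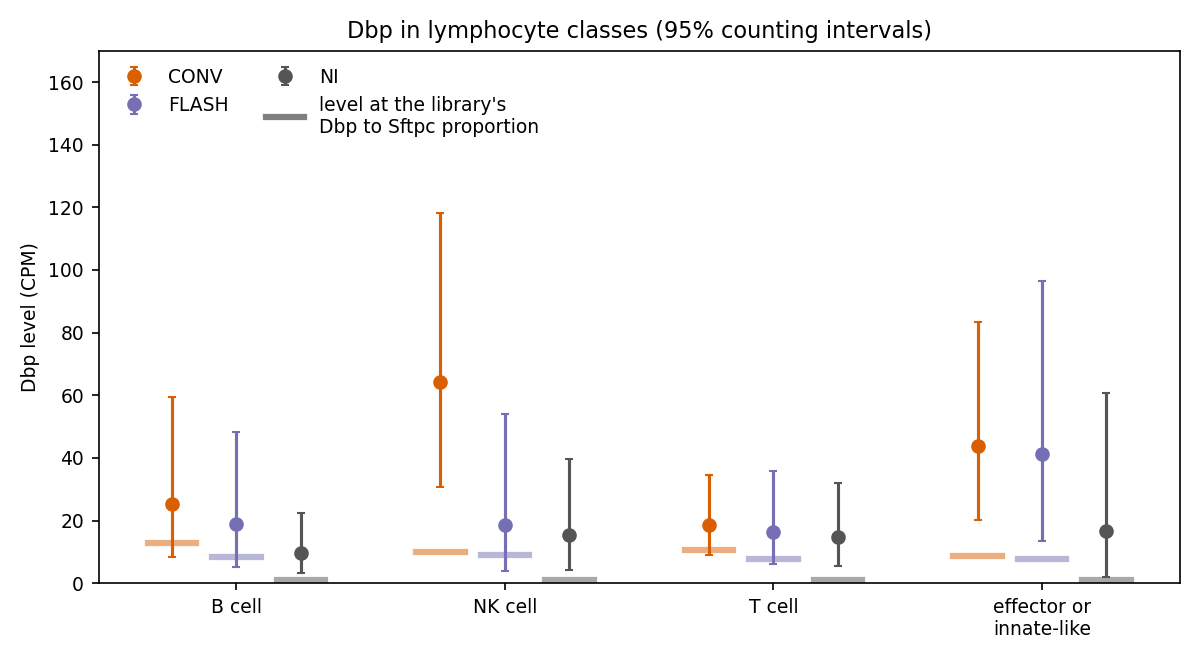
Dbp level (vertical axis, CPM) in 4 lymphocyte classes of CONV, FLASH and NI, with exact 95% intervals for counting error; flat bars mark the Dbp level that whole-library RNA would carry at the class's share of Sftpc. NK cells of CONV, at 64.3 CPM, have a whisker that ends above their bar at 10.1 CPM, while in T and B cells of CONV and FLASH the whiskers reach the bars.

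The other clock genes, a list of 18 chosen with earlier results known, stayed mostly within 2-fold in the non-lymphoid and lymphoid pools, as did most genes. In non-lymphoid cells 4.5% of all genes were higher and 5.56% lower in CONV, and 4.74% and 5.76% in FLASH. In lymphoid cells the shares were 5.64% and 7.44% in CONV, and 5.55% and 8.09% in FLASH. In non-lymphoid cells of CONV, 1 of the 15 measured was higher than in NI, Hlf, the remaining PAR bZIP factor, with a ratio of 2.01 (1.35 to 3.06). Also 1 was lower, Btrc, a ubiquitin ligase subunit that acts on PER proteins, at 0.442 (0.282 to 0.686). In FLASH 0 of 15 were higher, and Timeless, a partner of replication forks, was lower at 0.4997. The list's median log2 ratio was 0.13 in CONV and 0.20 in FLASH, beside 0.03 for all genes. Rora, a receptor that opposes REV-ERB, was at 47.8, 52.8 and 31.6 CPM, ratios of 1.51 (1.21 to 1.90) and 1.67 (1.33 to 2.12). Bhlhe40, an E-box repressor, was at 99.6, 99.8 and 125 CPM. The kinase genes Csnk1d, at 42.6, 46.6 and 41.7 CPM, and Csnk1e, at 41.1, 43.8 and 34.4 CPM, lay close to NI. Picked after their values were seen, Bhlhe41, a repressor related to Bhlhe40, had 26, 18 and 2 UMIs in AT2 cells and 17, 21 and 1 in alveolar fibroblasts, and Clock, the partner of BMAL1, was at 20.1, 27.2 and 29.6 CPM in non-lymphoid cells. In lymphoid cells 0 of 14 of the list were higher and 1 lower in CONV (Btrc), and 0 of 11 either way in FLASH. Alveolar fibroblasts had 2 of 11 higher in CONV (Bhlhe41 and Cipc) and 3 of 11 in FLASH (the same with Hlf), beside 9.26% and 7.06% of all genes. Clock was lower there in CONV, where 5.87% of all genes were. AT2 cells had 2 of 12 higher (Cry1 and Bhlhe41) and Clock lower in CONV, beside 7.61% higher and 4.79% lower of all genes. In FLASH they had 1 of 11 higher (Bhlhe41), beside 6.39% of all genes. Capillary cells had 1 of 5 higher and 1 lower in each. Of all genes there, 8.08% were higher and 14.3% lower in CONV, and 7.98% and 12.7% in FLASH.

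Among 3 clock-controlled genes, Wee1, a kinase that holds mitotic entry, had 25, 19 and 4 UMIs in non-lymphoid cells, ratios of 3.71 (1.28 to 14.7) and 3.88. Usp2, a deubiquitinase, was at 15.4, 20.7 and 9.58 CPM, ratios of 1.60 and 2.16 (1.44 to 3.31), and Nampt, of NAD synthesis, at 37.8, 40.6 and 48.5 CPM. Acute signals also drive Per1, so 2 lists of such targets were set beside the members. Of 12 glucocorticoid targets measured in non-lymphoid cells, 0 differed by 2-fold in CONV or in FLASH against NI. Of all genes there, 4.5% and 4.74% were higher and 5.56% and 5.76% lower. The targets had median log2 ratios of 0.07 and 0.27. In lymphoid cells 2 of 11 were higher in CONV (Mt1 and Mt2) and 3 of 11 in FLASH (the same with Ddit4), where 5.64% and 5.55% of all genes were, and 0 lower. In AT2 cells 0 of 11 differed by 2-fold in either comparison, where 7.61% and 6.39% of all genes were higher and 4.79% and 5.7% lower. Alveolar fibroblasts had 3 of 11 higher in CONV (Mt1, Mt2 and Ddit4), where 9.26% of all genes were. Pdk4 was lower there in CONV, where 5.87% of all genes were. In FLASH alveolar fibroblasts had 3 of 12 higher (Mt2, Ddit4 and Lcn2), where 7.06% of all genes were. Capillary cells had 2 of 9 higher in CONV and 1 of 8 in FLASH (8.08% and 7.98% of all genes), and 1 lower in each. In non-lymphoid cells Mt1, a metallothionein, was at 995, 1441 and 987 CPM and Tsc22d3, which encodes GILZ, at 273, 268 and 303 CPM. Dusp1, a phosphatase of MAP kinases, was at 551, 779 and 768 CPM there. Of 15 immediate early genes in non-lymphoid cells, 0 differed by 2-fold in either comparison, with median log2 ratios of -0.48 in CONV and -0.17 in FLASH. There Fos was at 1266, 1441 and 1689 CPM and Junb at 893, 1036 and 1247 CPM. In AT2 cells Egr2 was higher in both comparisons and Egr1 lower in CONV. Lymphoid cells had 1 of 15 higher in each, where 5.64% and 5.55% of all genes were. There 1 was lower in CONV and 2 in FLASH, where 7.44% and 8.09% of all genes were. Capillary cells had 4 of 14 lower in CONV and 3 of 13 in FLASH, where 14.3% and 12.7% of all genes were. The part of these 2 lists in the member values was not tested.

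The genes whose levels moved most like Dbp were ranked by Pearson's r of log2(CPM + 10), centred within each class, over 39 points from 13 classes in 3 libraries. These points share libraries and the r is descriptive. Of 6418 genes, the highest r were those of Rps27l (0.908), Rps19 (0.889), Rpl19 (0.866), Rplp2 (0.854), Ccng1 (0.851) and Rps20 (0.847). Rps27l was at 738, 777 and 467 CPM in non-lymphoid cells, ratios of 1.58 and 1.66. Of the members, Tef ranked 27 with an r of 0.80, Nr1d1 98 with 0.66, Nr1d2 2023 with 0.11 and Per1 2740 with 0.03. The other members reached 10 UMIs in too few of the classes for a rank.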

How the data were processed

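The authors' deposited files held raw UMI counts for every gene in every cell barcode, made with Cell Ranger 2.0 on mm10 per the submitters' processing notes. The chemistry was 10x Chromium 3', per the labels' protocols. Barcodes under 200 genes (50) or over 10% mitochondrial UMIs (154) were removed. Scrublet's top scores at a rate of 0.8% per 1000 barcodes removed 113 more as doublets; its automatic threshold marked 45 (0.675%). The 6345 kept cells of 6662 barcodes were scaled to 10000 UMIs and log transformed, and clustered by the Leiden method at resolution 1 on 2000 variable genes, with 30 components and 15 neighbours and no integration. The 25 clusters were named from markers of 32 types: at least 3 markers, each in 10% of cells and 2-fold above other cells, and at least 1 among the 10 leading genes. Those limits for names were chosen after seeing the data. Clusters with over 80% of cells from 1 library were left out.

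The members and gene lists were chosen with earlier results of these data known. Named genes outside the members were the most abundant of each list or those past 2-fold, and the 6 genes most like Dbp. Levels carry exact Poisson, ratios exact conditional binomial and shares exact Clopper-Pearson intervals at 95%, for counting error only. Intervals of quotients of ratios are on the log scale. A count of 0 was bounded by 3 counts. The ratio step was tested on simulated data. Positions are from GENCODE M21 on mm10, which held 27645 of 27998 gene identifiers. The tools were scanpy 1.11.5 with igraph 0.11.9 for clustering, numpy 2.4.6 and pandas 2.3.3 for sums, scipy 1.17.1 for intervals and matplotlib 3.10.9 for figures, run in Python 3.11.15. In all, 13 other settings were listed at the outset and 1, leaving out the cell with the most UMIs of a member, was chosen after seeing the data. The result of 1 listed gene is not reported here.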

Additional observations from a re-analysis of the deposited data

How the results depend on the processing

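Member ratios were recomputed 2072 times under the alternatives, and 2046 stayed within the counting interval of the reported ratio. Of all 2072, 96 crossed 1, of which 91 were ratios whose reported interval already included 1; thinning each cell to 1000 UMIs in 1 draw, which leaves few UMIs per gene, gave 29 of the 96 and equal cell weights 16. The other 5 had an interval that excluded 1, and all of these crossed it after thinning: Per1 in FLASH against NI (0.970), Per2 in FLASH against NI (0.970) and, within AT2 cells, Per2 in FLASH against NI (0.924) and Nr1d2 in FLASH against CONV (0.930), and Nr1d1 in CONV against NI in smooth muscle cells (0.989). With equal class weights, FLASH against CONV in non-lymphoid cells was 1.13 for Per2 and 1.31 for Arntl. The Dbp ratio in non-lymphoid cells ranged 3.61 to 4.57 in CONV and 3.89 to 5.07 in FLASH against NI, and in AT2 cells 5.31 to 8.72 and 7.81 to 12.0.

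Counts of members past 2-fold changed as follows. The share of all genes past 2-fold and the number of members measured are not given for these settings. Nothing is therefore read from these counts. In non-lymphoid cells after thinning, which leaves fewer UMIs of each member, 3 were higher and 0 lower in CONV and 1 lower in FLASH against NI. A minimum of 30 UMIs left 1 lower in CONV and 1 lower in FLASH, since fewer members are measured, and equal class weights left 1 lower in FLASH. In lymphoid cells the counts rest on few UMIs. For CONV against NI, 1 was higher at a mitochondrial limit of 20%, with at least 500 genes, at 30 UMIs and after thinning, 4 were higher with the control-rich clusters kept, and 0 were lower at 30 UMIs. For FLASH against NI, 2 were higher at the 20% limit, 3 with those clusters kept and 0 at 30 UMIs, and 0 were lower with doublets kept, with those clusters kept, at 30 UMIs and after thinning. For FLASH against CONV, 2 were higher and 1 lower with at least 500 genes, 2 higher with equal class weights, 0 higher at 30 UMIs and after thinning, and 1 lower with equal cell weights and without the cell with the most UMIs. Where no value shows it, the cause was not tested.

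Scaling by size factors moved the median of all genes by at most 0.07 on the log2 scale in the pools and by 0.13 in T cells, CONV against NI. Leaving out a library was not run, because each group is 1 library. No paired analysis was possible because each group holds 1 library and the result comes from no test.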
